A study of Mus musculus with 4 samples.

Results

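The genes of the proteasome were described in LSK cells (Lin- Sca-1+ c-Kit+ bone marrow cells, the fraction that holds hematopoietic stem and multipotent progenitor cells) of Meis1-deficient and control mice. Members were the genes whose symbol on the array is Psma, Psmb, Psmc, Psmd, Psme, Psmf or Psmg followed by a number, which gave 48 genes and 74 probes of 21339 named genes and 41174 probes. The rule used names only and no measured value. It left out 1 gene with further letters in its symbol, Psmc3ip, which is no proteasome gene. Each gene was read from its brightest probe, and 47 of the 48 genes were tested, each well above background on all 4 arrays. Psmb11, the catalytic subunit of the thymus proteasome, was well above background on no array and was not tested.

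Both genotypes were C57BL/6J mice homozygous for a Meis1 allele with loxP sites around exon 8 (Meis1 fl/fl). The Meis1-KO mice also carried Mx1-Cre, a recombinase driven by an interferon-responsive promoter, which is not active in hematopoietic cells alone. The Meis1-WT mice carried no Cre. At 4 to 8 weeks of age mice received poly(I:C), a double-stranded RNA mimic that induces interferon, by 4 injections of 1.5 ug/g with a 1-day interval, and cells were taken 1 week later. One description of the samples gives poly(I:C) to both genotypes and another calls the controls sham-treated, and if the latter holds, genotype and poly(I:C) cannot be told apart. Each genotype had 2 arrays, each of RNA from a pool of mice, and 10 ng of RNA was amplified per array. Replicate 1 of both genotypes shared slide 1 and replicate 2 of both shared slide 2, so KO was set against WT once per slide.

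Proteasomes are barrel-shaped proteases that break down proteins tagged with ubiquitin. The core particle is built of rings of alpha subunits (Psma genes) and beta subunits (Psmb genes), of which Psmb5, Psmb6 and Psmb7 are the standard catalytic ones. The cap, or regulatory particle, holds ATPases (Psmc genes) that unfold substrates and non-ATPase subunits (most Psmd genes), some of which bind or remove ubiquitin. In blood cells and under interferon, Psmb8, Psmb9 and Psmb10 take the place of the standard catalytic subunits, and Psme1 and Psme2 form an alternative activator, which together make the immunoproteasome known for producing peptides for MHC class I.

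Promoter sequence is shown for catalytic subunits, since these differ between the standard proteasome and the immunoproteasome, with the interferon-inducible ones first and then Psmb5 and Psmb6. Each sequence is the 250 bases before the gene's start in RefSeq on GRCm38.p6, printed 5′ to 3′ on the gene's strand. Capitals mark a match, on either strand, to 1 of 3 motifs: the interferon-stimulated response element core (GAAA, any 2 bases, GAAA), the gamma-activated site TTCNNNGAA, and the antioxidant response element core TGACNNNGC, which transcription factors that induce proteasome genes can bind. Matches to different motifs were counted separately, so they could overlap. Psmb7 is not shown.
Psmb8 (chr17:34197945-34198194, plus strand): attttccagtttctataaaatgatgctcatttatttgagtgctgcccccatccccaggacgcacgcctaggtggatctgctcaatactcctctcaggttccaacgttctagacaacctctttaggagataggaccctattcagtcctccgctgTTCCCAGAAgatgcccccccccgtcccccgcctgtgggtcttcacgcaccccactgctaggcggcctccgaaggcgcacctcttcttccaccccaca
Psmb9 (chr17:34187331-34187580, minus strand): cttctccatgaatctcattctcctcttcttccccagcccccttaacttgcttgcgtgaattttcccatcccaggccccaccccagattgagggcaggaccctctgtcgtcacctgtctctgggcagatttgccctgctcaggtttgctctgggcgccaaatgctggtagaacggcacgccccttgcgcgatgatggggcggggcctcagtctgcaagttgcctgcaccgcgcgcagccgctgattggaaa
Psmb10 (chr8:105938393-105938642, minus strand): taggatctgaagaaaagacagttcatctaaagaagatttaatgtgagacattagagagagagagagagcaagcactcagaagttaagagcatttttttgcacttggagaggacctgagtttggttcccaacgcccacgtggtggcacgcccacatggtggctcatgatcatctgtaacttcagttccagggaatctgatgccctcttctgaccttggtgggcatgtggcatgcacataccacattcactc
Psmb5 (chr14:54617996-54618245, minus strand): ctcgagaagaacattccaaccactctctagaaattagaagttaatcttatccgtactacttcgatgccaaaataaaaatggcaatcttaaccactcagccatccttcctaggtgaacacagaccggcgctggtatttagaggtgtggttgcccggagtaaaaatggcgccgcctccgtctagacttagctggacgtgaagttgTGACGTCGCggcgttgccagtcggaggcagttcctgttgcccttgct
Psmb6 (chr11:70525107-70525356, plus strand): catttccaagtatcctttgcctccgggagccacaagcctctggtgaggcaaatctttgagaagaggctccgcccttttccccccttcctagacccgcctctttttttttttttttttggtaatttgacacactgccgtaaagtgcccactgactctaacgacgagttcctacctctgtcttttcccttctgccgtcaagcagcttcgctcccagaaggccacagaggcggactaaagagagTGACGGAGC

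Of these, Psmb8 held a gamma-activated site letter match 97 bases before its start. Psmb5 and Psmb6 held the antioxidant core 47 and 9 bases before theirs, and Psmb9 and Psmb10 held none of the 3 motifs. Promoters were matched for 40 member genes (43 promoters). The interferon element was in 3 of these 43 and in 2.98% of all 32851 promoters. It was in 0 of 6 immunoproteasome promoters. The gamma-activated site was in 2 of 43 member promoters against 7.02% of all, and the antioxidant core in 5 of 43 against 10.2%. A letter match is a description of the window and not a binding site.

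Across the proteasome no gene passed the study's criteria, but most values were higher in Meis1-KO. Values are log2 signals relative to each array's 75th percentile, and differences are Meis1-KO minus Meis1-WT. The median difference was 0.41 over the 47 genes, against 0.13 over all 12258 tested genes, and it was above 0 in 41 of 47 members and in 59.9% of all genes. Without Meis1-KO 2 the members' median was -0.016 with 22 of 47 above 0, and with quantile normalization 0.17 with 33 of 47. It was 0.51 over the 14 core particle genes (14 of 14 above 0), 0.48 over the 5 immunoproteasome genes (5 of 5), 0.26 over the 17 cap genes (13 of 17) and 0.55 over the 7 assembly chaperones (6 of 7). By limma with Benjamini-Hochberg adjustment over 22007 probes, 0 members met the criteria of an unadjusted p under 0.01 and over 2-fold, where 0.726% of all tested genes did. With the slide as a block 0 members met them, where 1.75% of all genes did. None had an unadjusted p under 0.05 in limma either, against 2.46% of genes. The lowest adjusted p was 0.983 in limma's fit on genotype alone and 0.956 with the slide as a block. With 2 arrays a genotype, an exact two-sided permutation test cannot go below p = 0.333. The SEs and p-values of limma rest on the spread between pools, drawn toward a value shared by all tested probes. A printed SE is thus not the gene's own spread alone.

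**Figure D1:**
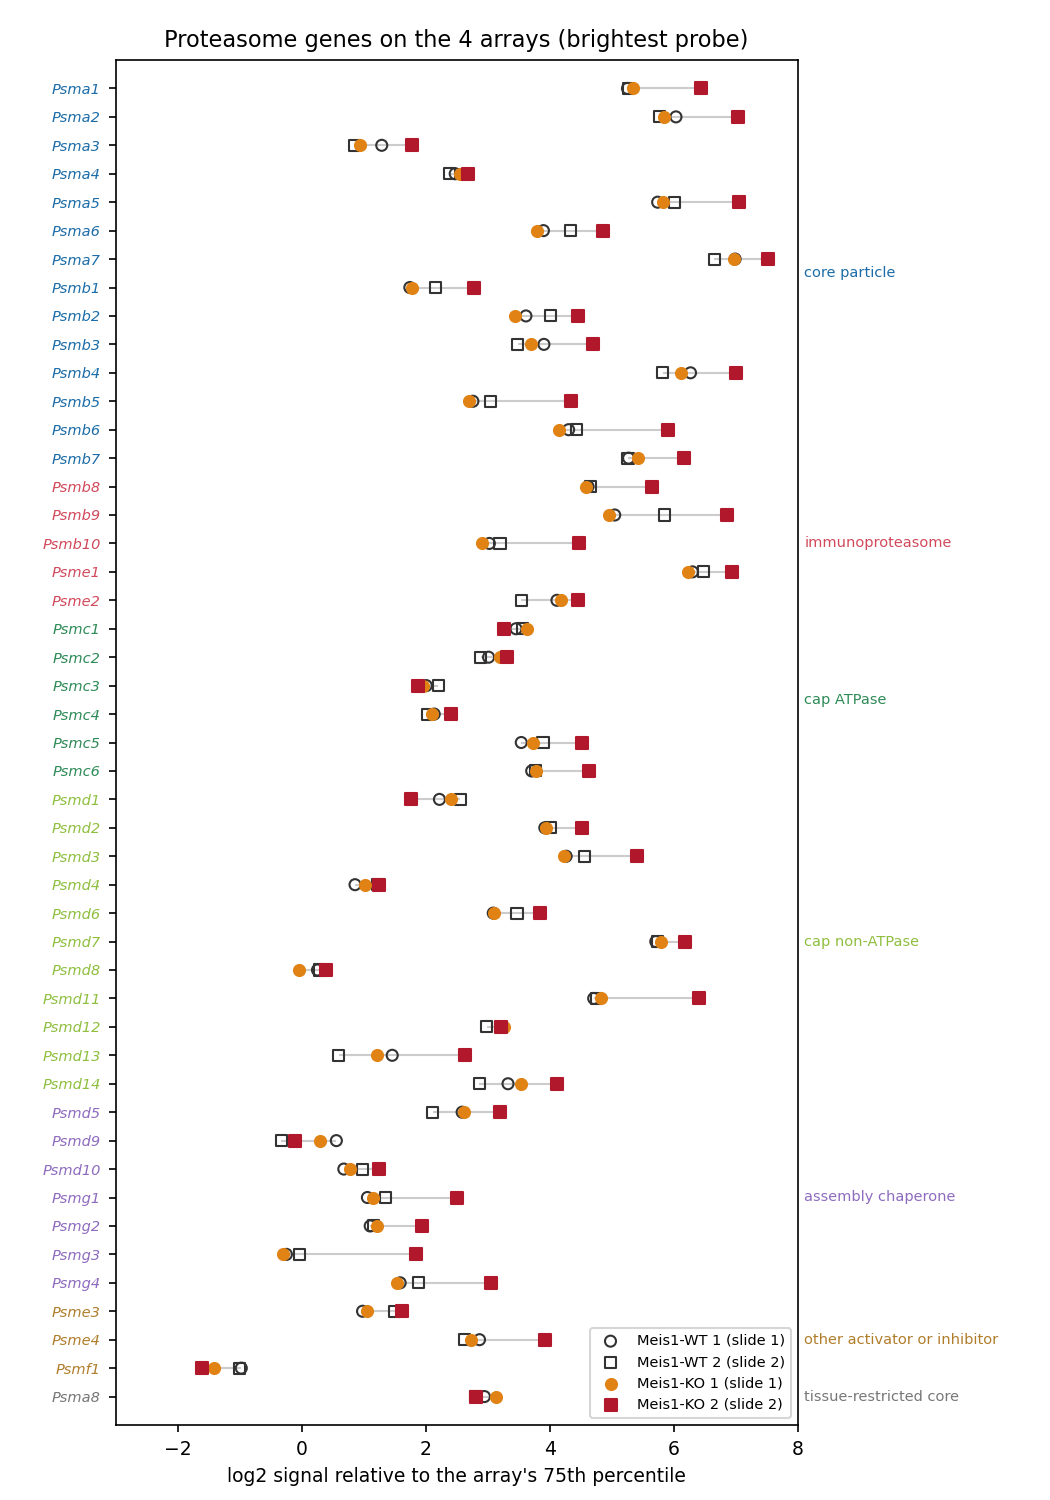
Level of the 47 tested proteasome genes on each array, as log2 signal relative to the array's 75th percentile (x axis), by class (label colour). Open symbols are Meis1-WT and filled symbols Meis1-KO arrays, circles slide 1 and squares slide 2. The filled square of Meis1-KO 2 is the highest of the 4 in 40 of 47 genes.

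The differences lay on slide 2. On slide 1 the median over the 47 members was 0.015, with 24 above 0 and 44 within 0.3 of 0. On slide 2 it was 0.84, with 43 above 0 and 28 over 0.5. All tested genes had medians of 0.0091 and 0.23, with 65.6% within 0.3 of 0 on slide 1 and 60.8% above 0 and 36.8% over 0.5 on slide 2. The core particle had medians of -0.082 on slide 1 and 0.98 on slide 2, the immunoproteasome -0.074 and 1.00, the cap 0.067 and 0.43, and the chaperones 0.027 and 1.08. The cap had the lowest slide 2 median of these 4 classes, and the difference between classes was not tested. In all, 22 members were higher in Meis1-KO on both slides, where 31.8% of all genes were, and 2 (Psmf1 and Psmc3) were lower on both, where 19.5% were. Both Meis1-KO values lay above both Meis1-WT values in 11 members, against 16.6% of all genes, and below in 2, against 9.66%. With background modelled from the raw spot signal (normexp) the 11 became 3, against 23% of all genes. The 22 higher on both slides became 8, where the share of all genes was not counted.

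**Figure D2:**
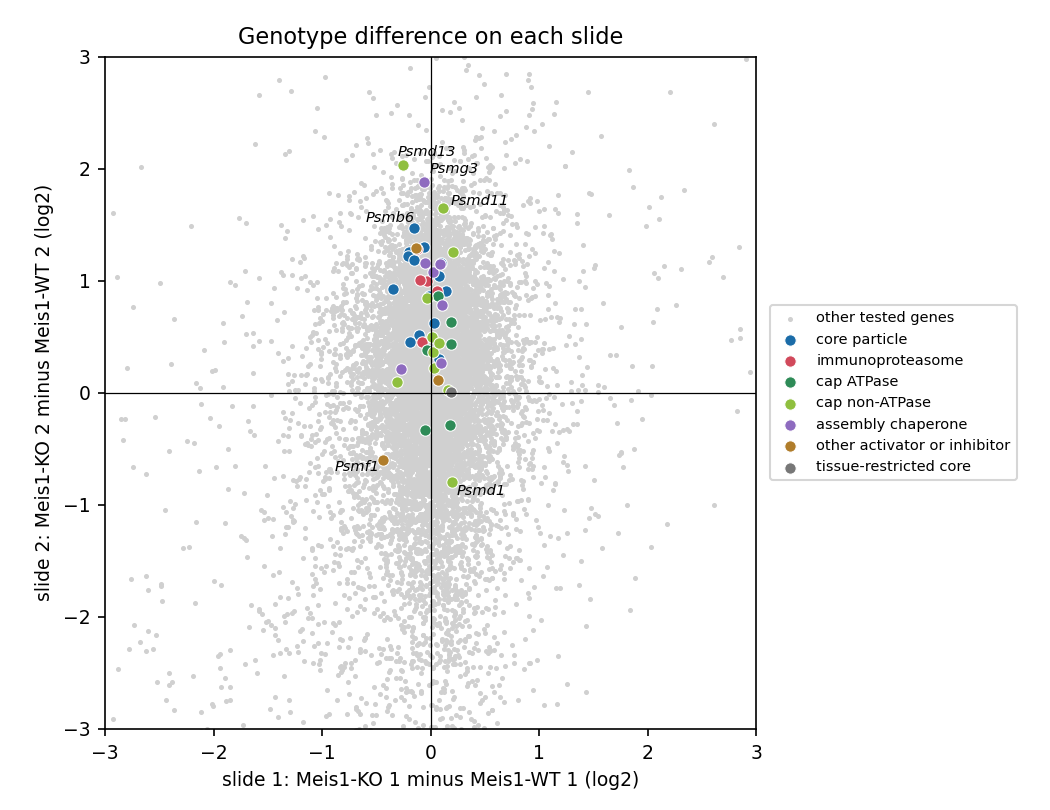
Difference between genotypes (log2) on slide 1 (x axis) and slide 2 (y axis) for each tested gene, with proteasome genes coloured by class. Members lie in a narrow band around 0 on the x axis and mostly above 0 on the y axis. The axes stop at 3 on either side, which leaves out 243 genes, none of them a member.

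This pattern was that of a single array, Meis1-KO 2. It was the highest of the 4 arrays in 40 of 47 members, in 14 of 14 core and 5 of 5 immunoproteasome genes, and in 49.2% of all genes. Its members lay a median of 0.75 above Meis1-KO 1, while Meis1-WT 2 lay 0.051 above Meis1-WT 1. Meis1-KO 2 was also the dimmest array, with a 75th percentile signal of 88.9 against 144 to 151 on the others and 49.2% of spots well above background against 54.7% to 57.4%. It correlated with the other arrays at 0.891 to 0.916, and they with each other at 0.956 to 0.968. Without it the class medians were -0.059 for the core, -0.16 for the immunoproteasome and 0.028 for the cap. Without Meis1-KO 1 they were 0.93, 1.02 and 0.46. In that fit Meis1-KO 2 stands alone for its genotype, the spread comes from the 2 Meis1-WT arrays, and Meis1-KO 2 is taken to have that same spread. It called 3 of 47 members (Psmb6, Psmd11 and Psmg3), where 8.44% of all tested genes met the criteria.

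Meis1 was read by 2 probes. One measured 0.28 and 0.24 in Meis1-KO against 1.04 and 1.47 in Meis1-WT, lower on both slides. The other measured -2.44 and -3.52 against -1.52 and -1.04, where the Meis1-KO 2 value was not well above background. Where the probes lie relative to the deleted exon was not examined. LSK markers were all measured (8 of 8, median difference -0.036), and their summed signal, in units of each array's 75th percentile, ranged from 275 to 304. Of other cell types' markers, the erythroid list (9 genes on the array, 7 tested) summed to 249.6 on Meis1-KO 2 and to 24.2 to 101.7 elsewhere. Nearly all of that sum was hemoglobin Hbb-b1 (log2 level 7.95 on Meis1-KO 2), while Hba-a1 was at -2.03 there against 1.86 on Meis1-KO 1, and the list's slide 2 median was 0.18. Rhag of this list met the criteria at 1.72 (limma, adjusted p = 0.983). Plasma cell markers (6 of 7 tested) summed to 5.14 and 26.5 in Meis1-KO and 27.9 and 13.8 in Meis1-WT. Granulocyte and monocyte markers (10 of 12) summed to 175 and 126 against 192 and 64.3. Their median difference was -0.22, with 3 above 0 and 7 below. Elane met the criteria at -1.58 (limma, adjusted p = 0.983), and Ctsg was at 0.92. Dendritic and macrophage markers (7 of 7) summed to 6.73 and 14.9 against 16.4 and 25.0. With the slide as a block, Cd74 of this list (-1.835) and 1 gene of the plasma cell list also met the criteria, where 1.75% of all genes did. B lineage markers (4 of 10) stayed between 7.86 and 19.3, with Pax5, Igll1 and Cd22 above background on no array. T lineage markers (3 of 7) stayed between 1.78 and 2.99, with Cd3e and Cd3g above background on none. The part of other cells in the proteasome values was not tested, and in pooled bulk RNA a change in the cells present and a change per cell cannot be told apart.

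Bright genes as a whole had higher values in Meis1-KO 2 than in Meis1-WT 2, and many proteasome genes were bright. Genes were split into 5 groups of equal size by their level on the control array of the other slide, Meis1-WT 1 for the slide 2 difference. Of the members, 29 were in the brightest group, 9 in the next and 0 in the dimmest. The slide 2 difference of all genes had medians of 0.046, 0.075, 0.18, 0.30 and 0.51 from the dimmest group to the brightest. In the brightest group the 29 members had a median of 0.91, with 28 above 0, where 74.4% of all genes there were. On slide 1 the brightest group, taken by Meis1-WT 2, had a median of -0.014 over all genes and 0.015 over 29 members. Across the 47 members the Meis1-WT 1 level and the slide 2 difference correlated with r = 0.28 (rho = 0.32), and over all genes with r = 0.16, as a description of genes that share the same arrays.

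**Figure D3:**
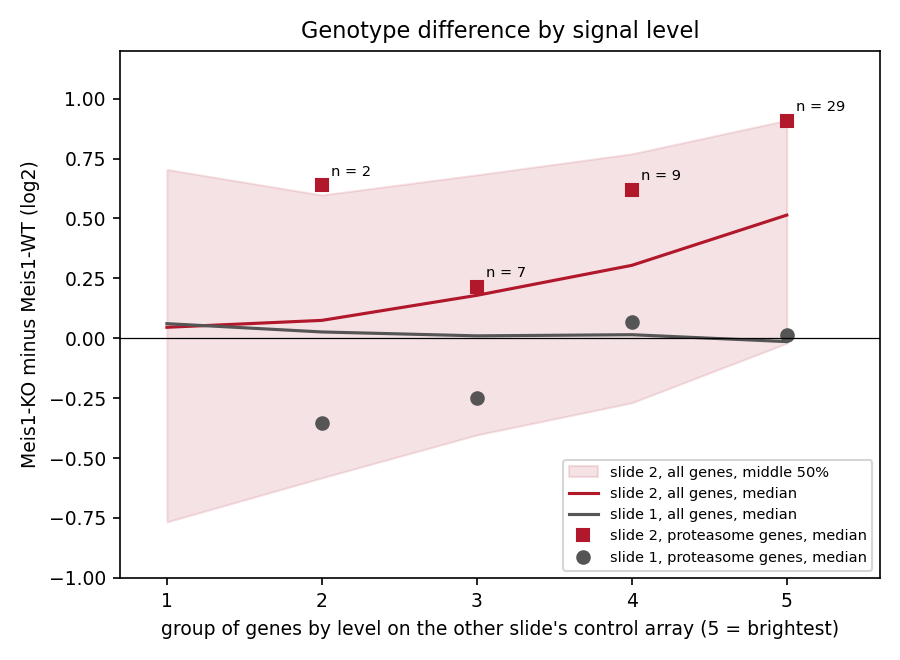
Median difference between genotypes (log2, y axis) in each of 5 equal groups of genes by level on the control array of the other slide (x axis), for all tested genes (lines, with the middle 50% on slide 2 shaded) and for proteasome genes (symbols, n for slide 2). On slide 2 the median of all genes rises from 0.046 to 0.51 with level, and members in the brightest group sit at 0.91.

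The size of the difference also turned on the scaling. With quantile normalization, which gives every array the same distribution, the medians were 0.21 for the core, 0.19 for the immunoproteasome and 0.030 for the cap, and the slide 2 medians 0.38, 0.36 and 0.041. With background modelled from the raw spot signal (normexp) they were 0.30, 0.26 and 0.050. With each array scaled to its median they were 0.59, 0.57 and 0.34. Core and immunoproteasome were above the cap with quantile and normexp, median scaling shifts all genes alike, and without Meis1-KO 2 they were below it. What part the low signal of Meis1-KO 2 had in the differences was not tested further.

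**Figure D4:**
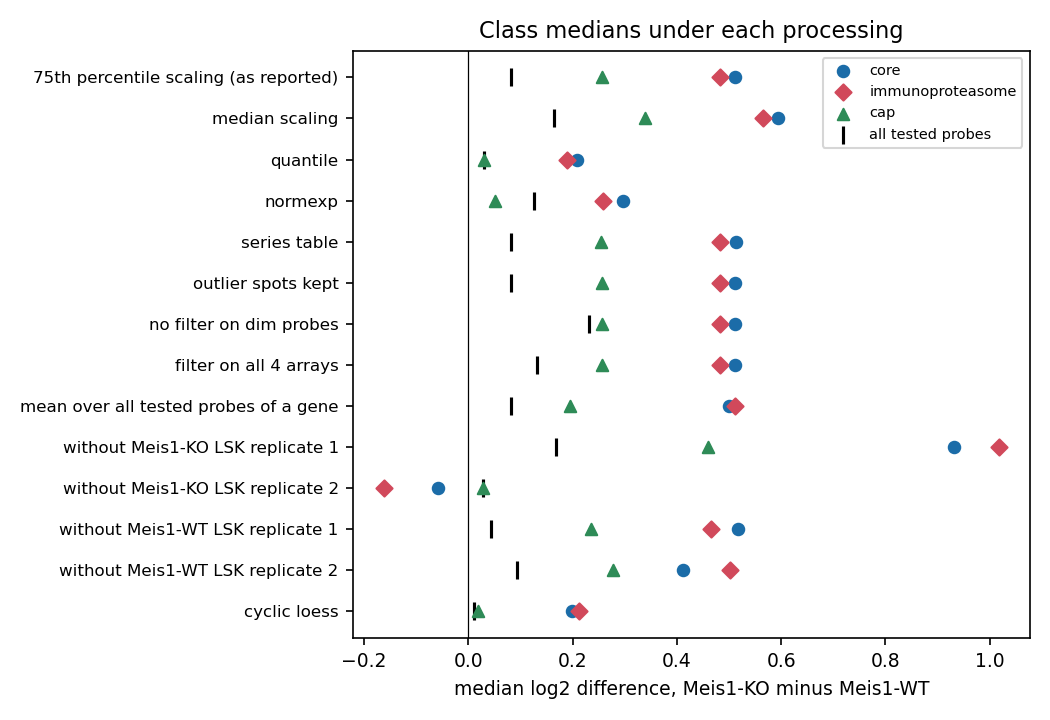
Median difference between genotypes (log2, x axis) of core (circles), immunoproteasome (diamonds) and cap genes (triangles) and of all tested probes (bars) under each processing (rows). Medians of core and immunoproteasome range from -0.059 and -0.16 without Meis1-KO 2 to 0.93 and 1.02 without Meis1-KO 1.

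The 5 immunoproteasome genes lay above the 75th percentile of signal on every array of both genotypes. Psmb8, the inducible chymotrypsin-like subunit (probe at chr17:34337771-34337830, mm9), measured 4.58 and 5.65 in Meis1-KO and 4.62 and 4.65 in Meis1-WT, so that 3 arrays lay together and Meis1-KO 2 stood above. Its difference was 0.48 (SE 0.52). Psmb9, also in the MHC region (chr17:34319174-34319233), measured 4.95 and 6.86 against 5.05 and 5.85, and its groups overlapped. Here both slide 2 arrays were above both slide 1 arrays, and the difference was 0.46 (SE 0.72). Psmb10 (chr8:108459677-108459736) measured 2.90 and 4.48 against 3.03 and 3.20, a difference of 0.58 (SE 0.62), again with Meis1-KO 2 apart.

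Psme1 and Psme2, neighbours on chromosome 14 that encode the alternative activator, gave smaller differences or another order of arrays. Psme1 (chr14:56200194-56200253) measured 6.23 and 6.93 against 6.30 and 6.48, a difference of 0.19 (SE 0.47) that was -0.17 under quantile normalization. Psme2 (chr14:56206927-56207124) measured 4.18 and 4.45 against 4.12 and 3.54. It was the only immunoproteasome gene with both Meis1-KO arrays above both Meis1-WT arrays, since Meis1-WT 2 was its lowest array, and its difference was 0.49 (SE 0.45). A dimmer probe of Psme2 gave 0.64.

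Among the standard catalytic subunits, Psmb5 and Psmb6 shared their lowest and highest arrays with Psmb8 and Psmb10, and Psmb7 shared the highest only. Psmb5, the chymotrypsin-like subunit and the target of proteasome inhibitor drugs (chr14:55233161-55233220), measured 2.70 and 4.34 in Meis1-KO and 2.76 and 3.04 in Meis1-WT, a difference of 0.62 (SE 0.63). Psmb6, the caspase-like subunit (chr11:70341014-70341073), measured 4.15 and 5.90 against 4.30 and 4.43, a difference of 0.66 (SE 0.65). In both, Meis1-KO 1 was the lowest array and Meis1-KO 2 the highest. Psmb7, the trypsin-like subunit (chr2:38468966-38489385), measured 5.42 and 6.17 against 5.27 and 5.26, and its groups did not overlap. Its difference was 0.53 (SE 0.47).

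Each inducible subunit was then set against the standard one it replaces, by subtracting the difference of the standard gene from that of the inducible gene on each slide. Psmb8 minus Psmb5 was 0.027 on slide 1 and -0.30 on slide 2, a mean of -0.14 ± 0.23 (SD, n = 2 slides). Psmb9 minus Psmb6 was 0.050 and -0.46, a mean of -0.21 ± 0.36. Psmb10 minus Psmb7 was -0.27 and 0.37, a mean of 0.050 ± 0.46. The slides disagreed in sign in each pair, so each mean was bound to be smaller than its SD.

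Other core subunits followed. All 7 alpha subunits were higher in Meis1-KO 2 than on any other array, with a slide 2 median of 0.92 and a slide 1 median of -0.017. Psma1 measured 5.35 and 6.44 in Meis1-KO and 5.25 and 5.27 in Meis1-WT, the largest core alpha difference at 0.63 (SE 0.52). Psma5 measured 5.82 and 7.05 against 5.74 and 6.01, a difference of 0.56 (SE 0.55), and its groups overlapped. Among the 7 beta subunits slide 2 differences ran from 0.45 (Psmb2) to 1.47 (Psmb6) and slide 1 differences from -0.21 to 0.15. Psma8, a germ cell paralog of Psma7, was well above background and measured 3.14 and 2.82 against 2.95 and 2.81, and whether its probe reads Psma7 was not examined.

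Cap genes split. Psmd11, a scaffold subunit of the lid, measured 4.82 and 6.40 in Meis1-KO and 4.71 and 4.75 in Meis1-WT, a difference of 0.88 (SE 0.61) with no overlap and Meis1-KO 2 far above the rest. It was 0.094 without Meis1-KO 2. A second Psmd11 probe, placed on the opposite strand by the array's annotation, measured 1.65 and 1.60 against 1.71 and 1.72. Psmd14, the deubiquitinase of the lid, measured 3.53 and 4.12 against 3.33 and 2.86, a difference of 0.73 (SE 0.47) with no overlap. In the limma fit on genotype alone it had the lowest unadjusted p of all members, 0.168 (adjusted p = 0.983). Dimmer Psmd14 probes gave 0.16 and 0.71, both with overlapping groups, and the mean over its probes was 0.53. Psmc3, a cap ATPase, measured 1.96 and 1.87 against 2.01 and 2.20, a difference of -0.19 (SE 0.42), with both Meis1-KO arrays below both Meis1-WT arrays. The 6 ATPases ran from -0.19 to 0.46, with 4 above 0. Psmd1, the large scaffold of the base, had the lowest slide 2 difference of all members. It measured 2.42 and 1.76 against 2.22 and 2.56, a difference of -0.30 (SE 0.47), but was higher in Meis1-KO on slide 1. Psmd13 lay at the other end, with 1.21 and 2.64 against 1.46 and 0.60 and slide differences of -0.25 and 2.04. Psmd1 and Psmd13 were named for these extremes after their values were seen.

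Assembly chaperones, which build the core or the cap and are not part of the finished particle, included the largest difference of all members. Psmg3 measured -0.31 and 1.85 in Meis1-KO and -0.25 and -0.031 in Meis1-WT, a difference of 0.91 (SE 0.74) with Meis1-KO 2 apart from the other 3 arrays, and it too was named after its values were seen. Psmg1 measured 1.15 and 2.50 against 1.06 and 1.36, a difference of 0.62 (SE 0.57). Psmd9 measured 0.29 and -0.11 against 0.56 and -0.33, with wide overlap and a difference of -0.029 (SE 0.50). Psmf1, the PI31 regulator, went the other way on both slides. It measured -1.41 and -1.61 in Meis1-KO and -0.97 and -1.01 in Meis1-WT, a difference of -0.52 (SE 0.42) without overlap that was -0.15 with normexp, and its 3 probes were all below 0, from -0.87 to -0.43.

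Probes of 1 gene did not always give the same direction. Of 17 genes with more than 1 tested probe, 6 had probes that differed in sign (Psmd2, Psmd9, Psmd11, Psmd12, Psme4 and Psmg2). For Psme4, an activator linked to histone turnover, the brightest probe measured 2.74 and 3.92 in Meis1-KO and 2.87 and 2.63 in Meis1-WT, a difference of 0.58 (SE 0.54). A dimmer Psme4 probe gave -1.01 and -1.60 against -0.94 and -0.65, a difference of -0.51 (SE 0.46). Psmd2 probes gave 0.26 and -0.16, those of Psmd12 from -0.026 to 0.37, those of Psmg2 0.45 and -0.027, and those of Psmd9 -0.029 and 0.091. The brightest probe had a higher slide 2 difference than the dimmest in 8 of 17 genes. For this count and that of differing signs, the share over all genes was not taken. In 16 of the 17 genes all probes lay on 1 strand. Their slide 2 difference was a median of 0.17 higher at the probe nearest the 3′ end than at that nearest the 5′ end. The 3′ probe was higher in 12 of the 16. It was higher in 52.2% of 4939 genes at large, with a median gap of 0.043. On slide 1 the 3′ probe was higher in 8 of the 16 and in 47.3% of genes at large.

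The partner, ubiquitin and autophagy lists each had a higher median on slide 2 than on slide 1, as did all tested genes (0.0091 and 0.23). Differences between lists were not tested. Proteasome partners that carry other names (22 tested) had a median difference of 0.26, with slide medians of -0.029 and 0.44. Among them the cap subunit Shfm1 was at 0.65 and the ligase Ube3c at 0.64, and the shuttle Ubqln4 at -0.70 and Zfand2a at -0.42. Nfe2l1, the factor that induces proteasome genes when the proteasome fails, was at -0.24, a gene named for its role. Ubiquitin and its activating and conjugating enzymes (33 tested) had a median of 0.25 and slide medians of -0.035 and 0.53, led by Ube2t (0.91) and Ube2s (0.83), with Ube2r2 (-0.44) and Ube2d1 (-0.36) lowest. Autophagy and lysosome genes (21 tested) had a median of -0.0055 and slide medians of -0.21 and 0.20, from Atg5 (0.72) and Lamp2 (0.63) to Map1lc3a (-0.57) and Nbr1 (-0.82). By limma 0 genes of these lists met the criteria and 0 had an unadjusted p under 0.05, where 0.726% and 2.46% of all tested genes did.

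MHC class I antigen processing genes (17 tested) had a median difference of 0.027 and slide medians of -0.11 and -0.033, with 9 of 17 differences above 0. On both slides 7 of 17 were lower in Meis1-KO, where 19.5% of all genes were. Irf8 (0.60) and the class I activator Nlrc5 (0.43) were highest, and Irf1 (-0.40) and Tapbpl (-0.58) lowest. The transporters Tap1 and Tap2, with Tap1 lying between Psmb9 and Psmb8 in the genome, were at -0.15 and -0.19 and are named for their role. Interferon-stimulated genes (33 tested of 37 on the array) had a median of -0.21, with slide medians of 0.18 and -0.62, so their slide 2 median lay on the other side of 0 from that of the immunoproteasome genes. Ifit1, Oasl1, Irf7, Ifit3, Oas2 and Cxcl10 were well above background on 1 Meis1-KO array only and entered the test through Meis1-WT. Each had a difference below 0, so the filter has a part in these medians, and medians without them were not taken. Irgm1 (0.91) and Gbp3 (0.49) were highest. Zbp1 measured -1.46 and -2.81 against -0.76 and -0.43, and Cxcl10 measured -1.83 and -5.12 against -0.65 and -2.18. None met the criteria in the fit on genotype alone, where Zbp1 had a limma p of 0.0361 before adjustment (adjusted p = 0.983). In the fit with a slide term, where 1.75% of all genes met them, Cxcl10 did (limma, adjusted p = 0.369), and its Meis1-KO 2 value was not well above background.

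**Figure D5:**
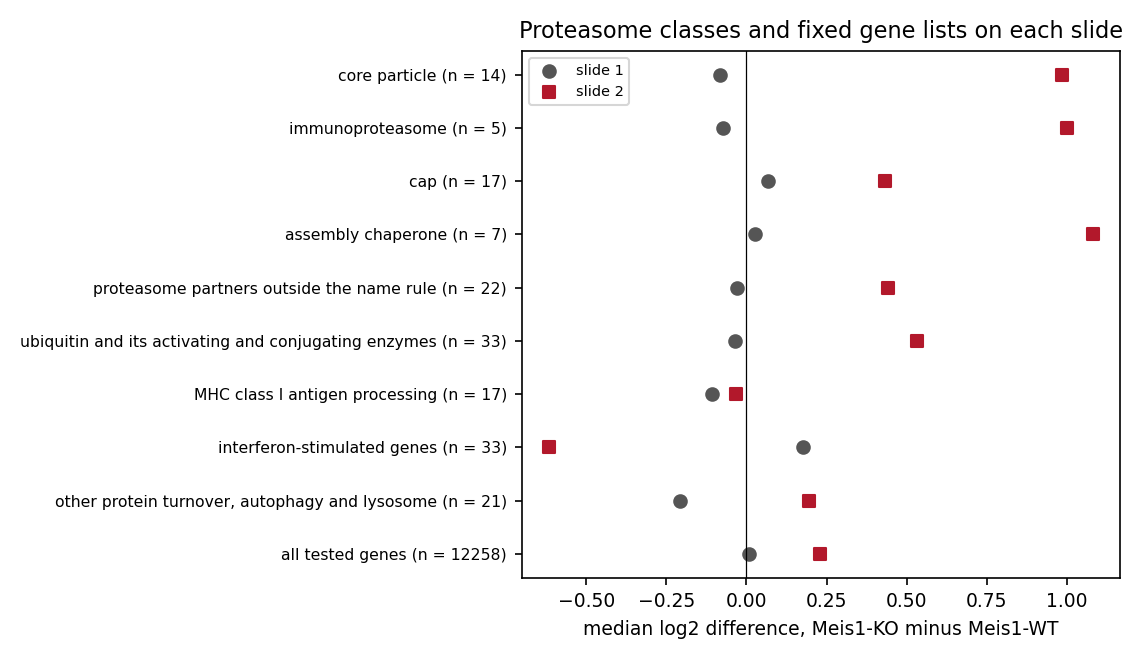
Median difference between genotypes (log2, x axis) on slide 1 (circles) and slide 2 (squares) for classes of proteasome genes, related gene lists and all tested genes (rows, n genes tested). On slide 2 core, immunoproteasome and chaperone genes sit between 0.98 and 1.08, and interferon-stimulated genes at -0.62. Some of the interferon-stimulated genes were tested through Meis1-WT alone.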

How the data were processed

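RNA of LSK cells was hybridised to 4 one-colour Agilent mouse arrays. The authors deposited a processed signal intensity per spot, from which Feature Extraction (9.5.3.1 per the file headers, 9.1 per the labels) had removed background and spatial trend, and they did not scale the arrays to each other. Probe positions come from the array's mm9 annotation.

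Here control spots and outliers were dropped, repeated spots averaged, and log2 signals set relative to the 75th percentile of the array. Testing was limited to 22007 probes with values on all 4 arrays and a signal well above background on each array of 1 or both genotypes. The limma package (3.58.1, R 4.3.3) gave the genotype test, with functions lmFit and eBayes, after a check on simulated data. Saturated spots numbered 0, and the number of arrays limits precision. File headers put same-numbered replicates on one slide, and their deviations correlated at 0.266.

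Members, classes and gene lists were chosen with earlier results of these data known. Named were the immunoproteasome genes, standard catalytic subunits, the 5 largest changes each way among genes of like sign on both slides (only 2 were negative), genes whose probes differed in sign, and the 2 highest and 2 lowest of each list. Of 66 member probes with a RefSeq accession, 66 carried the symbol of the GRCm38.p6 gene table. Alternatives were other scalings, normexp (offset 50), the authors' series table, other filters, a slide block, limma with an intensity trend, the t-test that the methods name, the mean over probes, and each array left out in turn.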

Additional observations from a re-analysis of the deposited data

How the results depend on the processing

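Over 20 named members and 16 alternatives, 298 of 320 values stayed on the same side of 0 and of the threshold, and 20 turned sign in 12 members. The slide block, the t-test, the intensity trend and the other filters left these differences as they were, so no sign could turn there. Leaving out Meis1-KO 2 turned the sign of 11 of the 20 members. The slide as a replicate block left 0 members meeting the criteria, as did every alternative that kept all 4 arrays. Without Meis1-KO 1 there were 3 of 47, in a fit where 8.44% of all genes met them, so leaving out each array gave 0 to 3. Leaving out each array gave core medians from -0.059 to 0.93, immunoproteasome medians from -0.16 to 1.02 and cap medians from 0.028 to 0.46, the lowest without Meis1-KO 2 and the highest without Meis1-KO 1. In the same way it gave Psmb8 from -0.052 to 1.02, Psmb9 from -0.50 to 1.41, Psmb10 from -0.21 to 1.37, Psme1 from -0.16 to 0.54, Psmb5 from -0.20 to 1.44, Psmb6 from -0.21 to 1.54, Psmg1 from -0.061 to 1.30, Psma5 from -0.053 to 1.18, Psmd2 from -0.033 to 0.54, Psme4 from -0.012 to 1.17, with the lowest again without Meis1-KO 2 and the highest without Meis1-KO 1. Members that kept their sign also moved. Between the fits without Meis1-KO 2 and without Meis1-KO 1, Psmd11 ran from 0.094 to 1.67, Psma1 from 0.086 to 1.17, Psmb7 from 0.15 to 0.90, Psmg2 from 0.079 to 0.81 and Psmd14 from 0.44 to 1.03. Psme2 ran from 0.20 without Meis1-WT 2 to 0.78 without Meis1-WT 1, and Psmc3 from -0.28 without Meis1-WT 1 to -0.094 without Meis1-WT 2. Psmd12 ran from 0.0046 without Meis1-WT 2 to 0.25 without Meis1-WT 1. Psmd11 was at 0.40 as the mean of its probes. Psmd9 ran from -0.47 without Meis1-WT 2 to 0.41 without Meis1-WT 1, and was at 0.054 with median scaling and 0.031 as the mean of its probes. The 22 members higher on both slides became 14 with median scaling, 17 with quantile, 8 with normexp and 16 with cyclic loess, which was chosen after seeing the data. The 2 lower on both became 4 with quantile, 5 with normexp and 4 with cyclic loess. The share of all genes was not counted under these settings, which move other genes too, so the changes are not read as a trait of the members. Members with both Meis1-KO arrays above both Meis1-WT arrays went from 11 to 8 with median scaling (17.9% of all tested genes), 7 with quantile (15.5%), 3 with normexp (23%) and 6 with cyclic loess (14.1%). With quantile, normexp and cyclic loess in turn, Psme1 was at -0.17, -0.034 and -0.15, and Psmd12 at -0.029, -0.073 and -0.069. With quantile Psmb8 was at 0.19, Psmb9 at 0.13, Psmb7 at 0.21, Psma5 at 0.22 and Psmd2 at 0.025, and as the mean of its probes Psme4 was at 0.062. The cause was not tested. By the methods' t-test 1 member, Psmf1, had a p under 0.05 before adjustment (0.0365), where 2.32% of all tested genes did, and 0 met the criteria. Signal over background set no limit on the 47 tested members, all well above it on 4 arrays, but left Psmb11 without a fold.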
